A study of Mus musculus with 2 samples.

Results

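The pancreatic endocrine genes linked to *Neurog3* examined here were *Insm1*, *Pax4*, *Nkx2-2*, *Rfx6*, *Nkx6-1*, *Pdx1*, *Mafa* and *Foxa2*, 8 of the 21938 protein-coding genes of the annotation. Their regions were the ATAC-seq peaks whose summit, the position of highest signal, lay in the gene body or within 50 kb of it. This rule gave 74 of the 117165 control peaks and 76 of the 124935 *Ngn3*-OE peaks on the assembled chromosomes. ATAC-seq marks open chromatin by where a transposase can cut DNA. Late retinal progenitor cells (RPCs) of the mouse had been electroporated in the retina at postnatal day 1 with a control plasmid or with a plasmid for the overexpression of *Ngn3* (*Neurog3*; *Ngn3*-OE), and GFP-positive cells were sorted 2 days later. Each group was 1 library of 50000 sorted cells. Whether the cells of a library came from 1 or several pups was not given in the sources used here, and GFP and the electroporation were common to both groups. With 1 library per group no difference between the groups had a replicate check, so counts, levels and intervals for counting error are given without p-values. Counting intervals do not cover the spread between animals or libraries.

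*Neurog3* encodes the basic helix-loop-helix factor that starts endocrine differentiation in the embryonic pancreas, where it acts above a series of other transcription factors. Factors of this family bind E-boxes, among which CATCTG is the form preferred by neurogenins and NeuroD proteins. On the opposite strand it reads CAGATG. *Insm1*, *Pax4*, *Nkx2-2* and *Rfx6* act in the differentiating endocrine precursor. *Nkx6-1*, *Pdx1* and *Mafa* define the insulin-producing beta cell, and *Foxa2* encodes a forkhead factor of the endoderm that opens chromatin. Several of these genes are also active outside the pancreas, *Insm1* in newborn neurons and *Nkx2-2* and *Nkx6-1* in the ventral neural tube.

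The labelled tissue was checked by peaks within 1 kb of the start sites of marker genes. All 8 retinal progenitor markers and all 5 photoreceptor markers had such a peak in both libraries, whereas 0 of 4 pancreatic exocrine markers and 0 of 4 microglial markers had one in either library. Of the markers of retinal pigment epithelium, endothelium and lens, 1 of 5, 1 of 4 and 1 of 4 had a start-site peak in both libraries, the endothelial one being *Kdr*. The tags at the summit of the strongest start-site peak, summed over the markers, were 435 in control and 399 in *Ngn3*-OE for progenitors and 167 and 248 for photoreceptors. The overexpressed gene itself had 0 peaks in its body in control and 1 in *Ngn3*-OE late RPCs, and the plasmid copy cannot be told apart from the chromosomal gene in these lists.

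Sequences of 7 regions are shown as they stand in the genome (mm10, plus strand): regions called in *Ngn3*-OE alone, regions of the *Insm1* cluster and 1 region rich in E-boxes. Regions whose surrounding sequence touched a *Foxa2* or *Insm1* exon are not shown. Capitals mark CATCTG, the SOX-type motif ATTGT and the CRX/OTX-type motif GGATTA, each on either strand. The first 2 are short stretches around the E-boxes within 100 bp of the summit of the strongest region near the 8 genes that was called in *Ngn3*-OE alone, 20.4 kb downstream of the *Insm1* start site in the 3′ untranslated exon of *Ralgapa2*. The first E-box lay inside the called peak and the second just outside it. The next 2 are the region downstream of *Insm1* whose counting interval lay above no change and its strongest neighbour in *Ngn3*-OE. The *Mafa* region at 16.3 kb downstream held the most E-boxes of those shown and was level between the libraries, with 16 tags in each, and the last 3 were called in *Ngn3*-OE alone.
Insm1 +20.4 kb, first E-box, chr2:146242315-146242340: acttttatcaCAGATGgctgacctac
Insm1 +20.4 kb, second E-box, chr2:146242370-146242395: agggtctcacCAGATGagtgaccctt
Insm1 +33.9 kb, chr2:146255751-146255950: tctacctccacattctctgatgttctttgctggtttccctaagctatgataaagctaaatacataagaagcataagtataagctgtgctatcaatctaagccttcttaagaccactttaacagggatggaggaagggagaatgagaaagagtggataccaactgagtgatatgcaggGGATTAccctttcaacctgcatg
Insm1 +38 kb, chr2:146259813-146260012: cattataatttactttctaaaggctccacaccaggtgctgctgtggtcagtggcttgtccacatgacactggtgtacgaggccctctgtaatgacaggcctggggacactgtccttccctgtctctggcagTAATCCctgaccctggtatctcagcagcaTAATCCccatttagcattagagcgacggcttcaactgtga
Mafa +16.3 kb, chr15:75731824-75732023: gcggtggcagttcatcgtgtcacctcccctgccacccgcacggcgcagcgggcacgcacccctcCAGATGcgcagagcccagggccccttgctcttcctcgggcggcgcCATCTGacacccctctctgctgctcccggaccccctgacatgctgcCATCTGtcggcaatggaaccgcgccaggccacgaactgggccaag
Mafa −40.5 kb, chr15:75788613-75788812: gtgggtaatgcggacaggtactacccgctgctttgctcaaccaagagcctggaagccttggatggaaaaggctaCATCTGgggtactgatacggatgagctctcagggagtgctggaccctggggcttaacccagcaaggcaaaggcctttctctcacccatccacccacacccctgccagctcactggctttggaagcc
Mafa −47.3 kb, chr15:75795401-75795600: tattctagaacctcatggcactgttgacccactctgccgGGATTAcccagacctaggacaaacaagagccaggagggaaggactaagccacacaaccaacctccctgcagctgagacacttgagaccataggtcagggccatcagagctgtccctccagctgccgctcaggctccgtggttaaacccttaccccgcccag
Nkx2-2 −18.5 kb, chr2:147204803-147205002: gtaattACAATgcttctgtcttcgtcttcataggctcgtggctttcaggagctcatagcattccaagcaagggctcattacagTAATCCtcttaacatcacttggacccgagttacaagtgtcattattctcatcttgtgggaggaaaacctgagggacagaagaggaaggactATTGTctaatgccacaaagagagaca

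Most of the chromatin that was open around the endocrine genes in control late RPCs was also called open in *Ngn3*-OE late RPCs. Of the 74 control peaks, 59 overlapped an *Ngn3*-OE peak, and 15 were control-only (20.3%, 95% Wilson interval 12.7 to 30.8), against 21.7% of all control peaks. Of the 76 *Ngn3*-OE peaks, 18 were *Ngn3*-OE-only (23.7%, 15.5 to 34.4), against 26.6% of all *Ngn3*-OE peaks. Both shares were thus near those of the whole lists. Within 10 kb of the gene bodies, 11 of 32 control peaks were control-only (34.4%) and 7 of 28 *Ngn3*-OE peaks were *Ngn3*-OE-only (25%). These counts are small and are given without an interval, so no departure from the whole lists is read from them. Most one-library peaks were weak, with at most 5 tags in 12 of the 15 control-only and 10 of the 18 *Ngn3*-OE-only peaks. Among peaks with a −log10 q of at least 5, 1 of 45 in control was control-only (all such control peaks, 7.89%) and 5 of 47 in *Ngn3*-OE were *Ngn3*-OE-only (all such *Ngn3*-OE peaks, 10.3%).

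At the 59 shared peaks the signal was compared as the ratio of summit tags, scaled by the lowest background of each library. The median log2 ratio of *Ngn3*-OE over control was 0.02 at the endocrine genes and 0.12 over all 91741 shared peaks, so that the scaling left a general shift of 0.12. The ratio was above 0 at 35 of the 59 peaks (59.3%; all shared peaks, 62.3%), and 26 of the 59 lay above the median of all. The middle range of the ratios, from −0.18 to 0.52, was close to that of all shared peaks, −0.24 to 0.48. A peak was called higher or lower when it changed by over 2-fold and its exact 95% counting interval excluded no change. By this rule 0 of the 59 peaks were called higher and 0 lower, against 2.34% and 1.91% of all shared peaks. The 6 peaks past 2-fold (10.2%; all shared peaks, 11.2%), 5 of them higher, had at most 18 tags in either library, a depth at which a 2-fold difference was mostly within counting error.

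**Figure D1:**
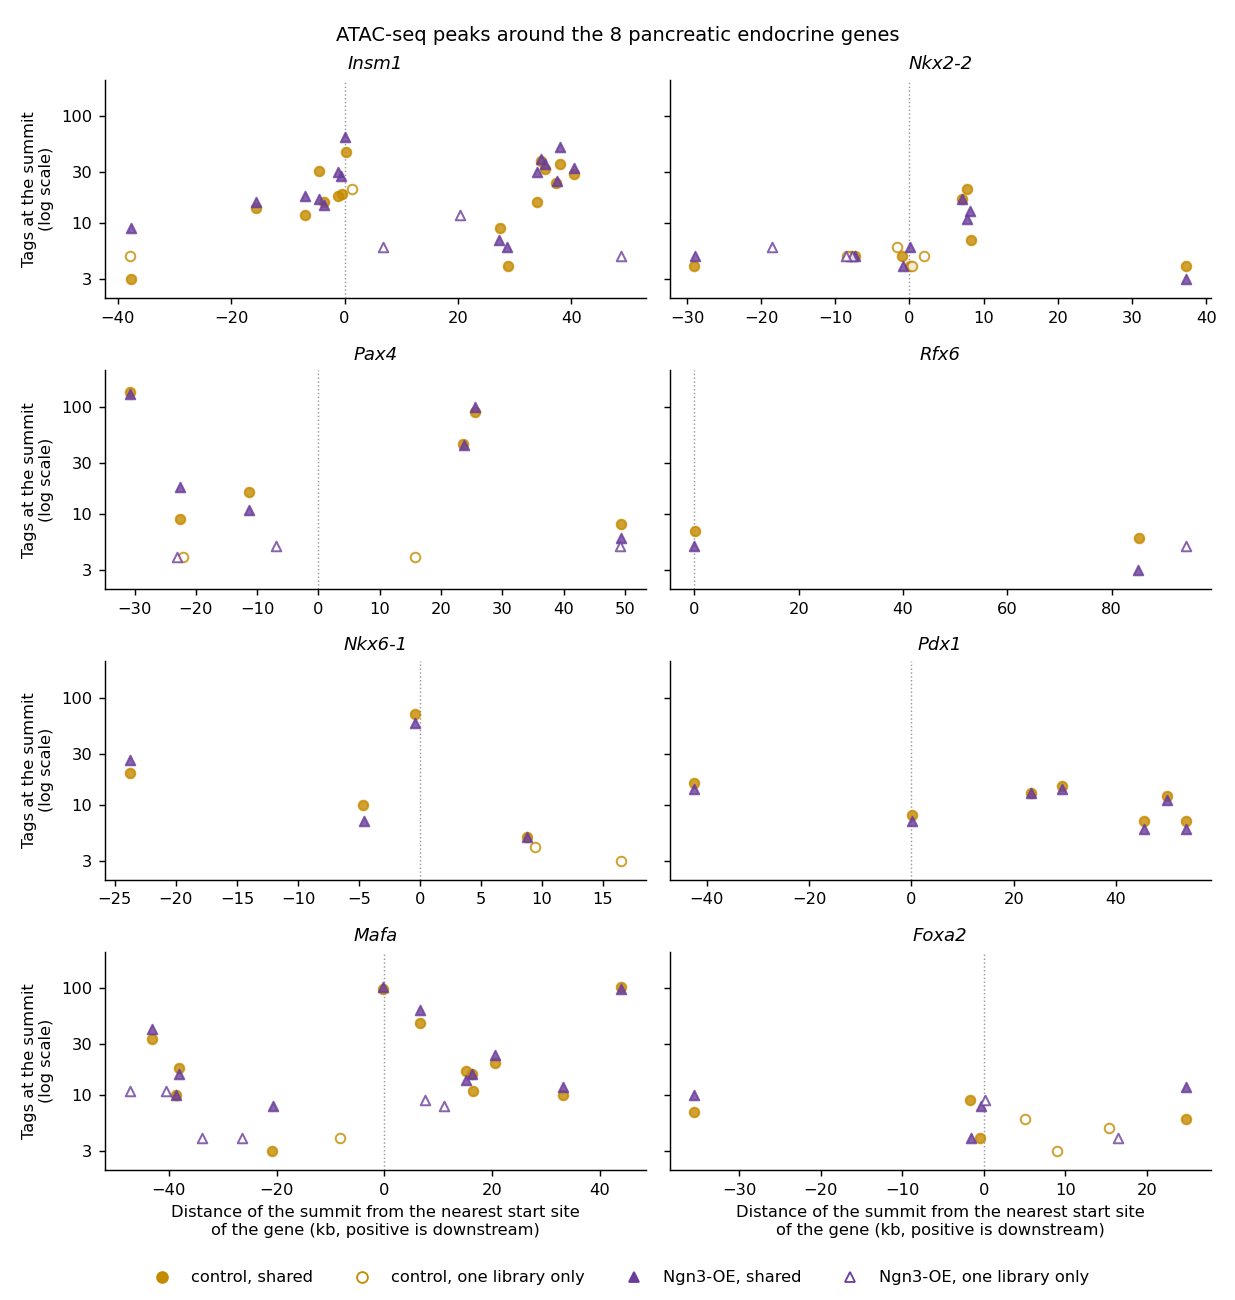
Tags at the summit (log scale) of every peak around the 8 genes, by the distance of the summit from the nearest start site of the gene in kb; circles are control, triangles *Ngn3*-OE, and open symbols peaks called in 1 library only. *Insm1* and *Mafa* had the most peaks, *Rfx6* the fewest, and most open symbols sat at few tags.

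The state of the promoters differed widely among the 8 genes in both libraries. A peak within 1 kb of a start site was present in both libraries at 7 of the 8 genes, whereas 63.6% of all protein-coding genes had one. With a −log10 q of at least 5 in both lists, 4 of the 8 genes and 60.1% of all genes did. *Mafa*, the basic leucine zipper activator of insulin transcription in mature beta cells, had the strongest, with 98 tags in control and 103 in *Ngn3*-OE. *Nkx6-1* followed with 71 and 58 tags, and *Insm1* with 46 and 64. These 3 promoters stood above the median of 43 tags that the strongest start-site peak had in each library over all protein-coding genes with one. At *Pdx1* the counts were 8 and 7 tags, at *Rfx6* 7 and 5, at *Nkx2-2* 4 and 6, and at *Foxa2* 4 and 9. These values lay below the lower quartile over all such genes, 21 tags in control and 20 in *Ngn3*-OE. At *Nkx2-2* and *Foxa2* the strongest start-site peaks of the 2 libraries were different regions. *Pax4* had no start-site peak in either library, and the 1 kb around its start had a CpG observed-to-expected ratio of 0.0517, against 0.934 at *Insm1*, 0.849 at *Nkx6-1*, 0.739 at *Mafa* and a median of 0.552 over all genes. At the genes with weak start-site peaks the ratio was near or above that median. It was 0.624 at *Nkx2-2*, 0.571 at *Foxa2*, 0.563 at *Pdx1* and 0.519 at *Rfx6*.

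**Figure D2:**
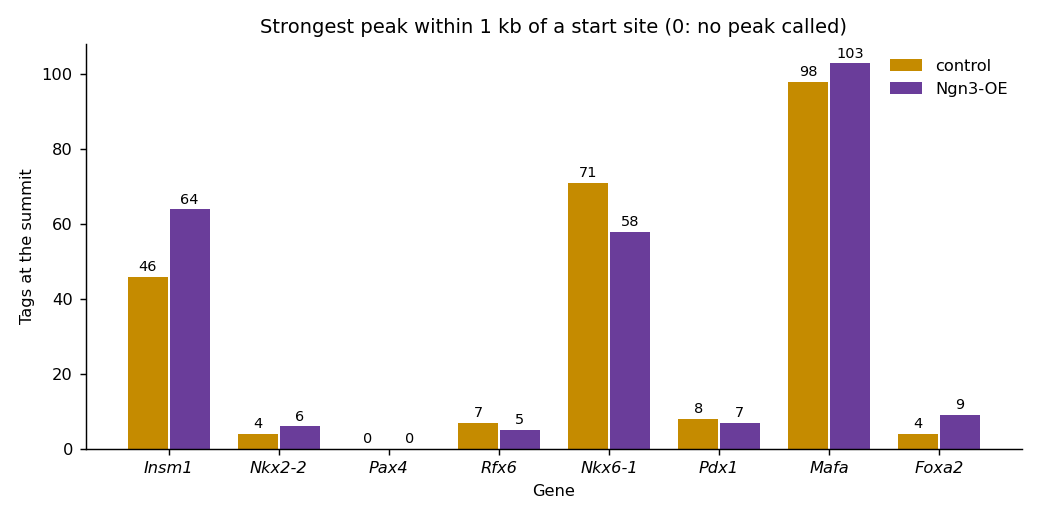
Tags at the summit of the strongest peak within 1 kb of a start site of each gene, in control and *Ngn3*-OE late RPCs (1 library each; 0 means that no peak was called). *Mafa*, *Nkx6-1* and *Insm1* had 46 to 103 tags, and the other genes at most 9.

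*Insm1* (ENSMUSG00000068154.5, chr2:146221921-146225020, plus strand), which encodes a zinc-finger repressor of endocrine and neuronal precursors, had the most peaks of the 8 genes and the highest density. It had 18 control and 19 *Ngn3*-OE peaks, of which 16 were shared, or 17.5 control peaks per 100 kb against a median of 6.83 over all genes. Of its 21 regions, 16 lay nearest to its own start site and 5 nearest to that of *Cfap61*. Summed over the 16 shared peaks, the summits held 347 tags in control and 426 in *Ngn3*-OE, a log2 ratio of 0.32 (95% counting interval 0.11 to 0.53). This sum stood at the 92.2 percentile of the 15291 genes with at least 5 shared peaks, whose median was 0.08. Scaled to the median shared peak instead, the log2 ratio of *Insm1* was 0.20 and its interval, −0.01 to 0.41, included 0. The photoreceptor markers, whose summed start-site tags were 167 in control and 248 in *Ngn3*-OE, were higher in *Ngn3*-OE as well, and their part in the *Insm1* value was not tested.

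The shared peaks of *Insm1* were also described by position. At the start site there were 46 tags in control and 64 in *Ngn3*-OE, at 0.5 kb upstream 19 and 28, and at 1.1 kb upstream 18 and 30, which made 83 and 122 tags within 2 kb of the start. A second group of 6 shared peaks lay in introns of *Ralgapa2*, between 33.9 and 40.5 kb downstream, and summed to 175 tags in control and 216 in *Ngn3*-OE. Within this group the peak at 33.9 kb had 16 tags in control and 30 in *Ngn3*-OE, a log2 ratio of 0.93 (0.01 to 1.90), and it alone among the 59 shared peaks (1.69%) had an interval that excluded 0, against 5.97% of all shared peaks. Scaled to the median shared peak, its log2 ratio was 0.81 and the interval, −0.11 to 1.79, included 0. The peak at 38 kb had 36 and 52 tags (log2 ratio 0.55), and the other 4 differed by at most 4 tags. The remaining 7 shared peaks summed to 89 and 88 tags. Among them the peak at 4.5 kb upstream went the other way, with 31 tags in control and 17 in *Ngn3*-OE (log2 ratio −0.84; −0.96 with an interval of −1.91 to −0.06 under the other scaling), and the one at 37.6 kb upstream had 3 and 9. In this order the 3 groups had log2 ratios of 0.58 (0.17 to 1.00), 0.33 (0.03 to 0.62) and 0.01 (−0.43 to 0.45). Their intervals overlapped, so an uneven spread of the signal could not be told from counting error. These 3 groups of peaks were formed after the values were seen, so their sums are a description.

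*Insm1* also had the strongest one-library peak of the 8 genes. The *Ngn3*-OE-only peak at 20.4 kb downstream (chr2:146242214-146242365) had 12 tags over a local background of 0.257 and a −log10 q of 14.8, which placed it at the 71.0 percentile of all *Ngn3*-OE peaks ranked from the weakest to the strongest q. Both E-boxes printed above lay to the right of its summit, at 24 and 79 bp, the latter beyond the end of the peak. The control-only peak at 1.4 kb downstream (chr2:146223304-146223366) lay in the coding exon, with 21 tags and a −log10 q of 6.50. Around the *Insm1* start the local background was high, 3.94 to 4.90 tags within 6 kb, so that a summit there needed more tags to be called than elsewhere. An uncalled region in the other library therefore could still hold several tags.

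**Figure D3:**
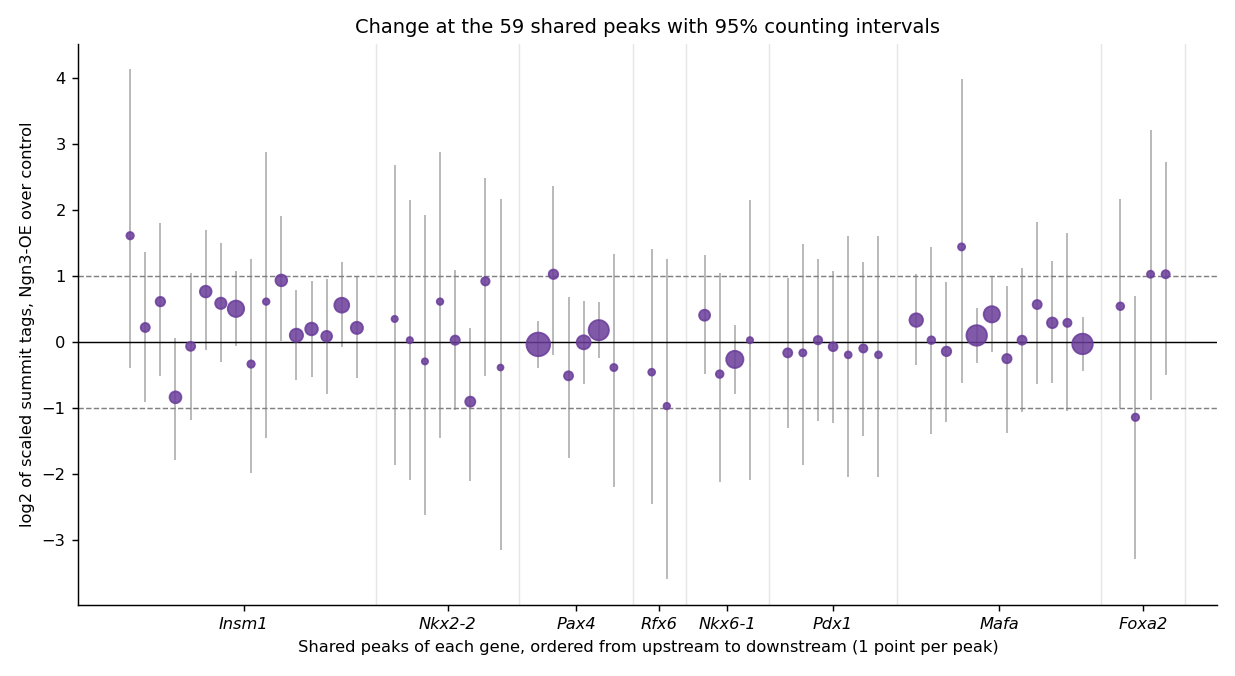
The log2 ratio of scaled summit tags, *Ngn3*-OE over control, at each of the 59 shared peaks, by gene and from upstream to downstream; bars are exact 95% counting intervals, the point size grows with the tags, and dashed lines mark 2-fold. Points above 0 were the majority at *Insm1* (13 of 16), whereas 6 of 7 at *Pdx1* lay below 0.

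*Pax4* (ENSMUSG00000029706.15, chr6:28442334-28449353, minus strand), a paired-homeodomain repressor that favours the beta-cell fate over the alpha-cell fate, had 8 control and 9 *Ngn3*-OE peaks, 6 of them shared. Only 2 of its 11 regions lay nearest to its own start site. The strongest sat at start sites of neighbours, with 138 and 132 tags at *Snd1*, 90 and 100 at *Gcc1* and 45 and 44 at *Arf5*. The *Pax4* window was thus mostly that of its neighbours, and the summed log2 ratio of 0.05 (−0.18 to 0.28) describes them. Nearest to *Pax4* itself, the shared peak at 11.4 kb upstream had 16 tags in control and 11 in *Ngn3*-OE, and a peak of 5 tags at 7 kb upstream was called in *Ngn3*-OE alone. At 22.5 kb upstream, nearest to *Snd1*, the tags were 9 in control and 18 in *Ngn3*-OE (log2 ratio 1.02, −0.20 to 2.36).

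*Nkx2-2* (ENSMUSG00000027434.11, chr2:147177546-147194243, minus strand), the homeodomain factor needed for beta-cell formation, had 13 control and 11 *Ngn3*-OE peaks, all 16 regions being nearest to its own start site. Its 8 shared peaks summed to 67 tags in control and 64 in *Ngn3*-OE, a log2 ratio of −0.04 (−0.56 to 0.47). The strongest peaks were not at the promoter but in the 3′ part of the gene. There the peak at 7.1 kb downstream of the start had 17 tags in both libraries, the one at 7.8 kb had 21 and 11 (log2 ratio −0.91), and the one at 8.3 kb in control had 7 and 13 (log2 ratio 0.92). Neighbouring peaks within the same gene therefore went in opposite directions, and the counting interval of each included 0. The strongest *Ngn3*-OE-only peak (chr2:147204865-147204949) lay 18.5 kb upstream in an intron of *Nkx2-2os*, with 6 tags and a −log10 q of 5.45.

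*Rfx6* (ENSMUSG00000019900.19, chr10:51677756-51730432, plus strand), a winged-helix factor of the islet lineage, had the fewest peaks, 2 in control and 3 in *Ngn3*-OE, or 1.31 control peaks per 100 kb. The start-site peak had 7 tags in control and 5 in *Ngn3*-OE, and the other shared peak, 85.2 kb downstream of the start, had 6 and 3. The summed log2 ratio was −0.68 with an interval from −2.15 to 0.70, so that neither direction could be told at this depth. Only 1 peak, of 5 tags at 94.3 kb downstream, was called in *Ngn3*-OE alone.

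Of the beta-cell genes, *Nkx6-1* (ENSMUSG00000035187.10, chr5:101658139-101664996, minus strand) encodes a homeodomain repressor that holds beta-cell identity. It had 6 control and 4 *Ngn3*-OE peaks, and the 4 shared peaks summed to 106 and 96 tags (log2 ratio −0.12, −0.53 to 0.29). The 71 and 58 tags 0.4 kb upstream of the start made up most of this sum. At 23.8 kb upstream the tags were 20 in control and 26 in *Ngn3*-OE. The 2 gaps lay in opposite directions, and both were within counting error.

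*Pdx1* (ENSMUSG00000029644.7, chr5:147269959-147275848, plus strand), the homeodomain factor that specifies the pancreas and activates insulin, was the only one of the 8 genes without a one-library peak. It had 7 peaks in each library, all shared, with 6 to 16 tags. Their log2 ratios ran only from −0.20 to 0.02, and the sum was 78 tags in control and 71 in *Ngn3*-OE (log2 ratio −0.11, −0.60 to 0.37). Only the start-site peak was nearest to *Pdx1*, while the others lay nearest to *Gsx1*, *Cdx2* or *Urad*.

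*Mafa* (ENSMUSG00000047591.5, chr15:75745490-75748228, minus strand) had 13 control and 17 *Ngn3*-OE peaks. The 12 shared control peaks summed to 388 tags and their *Ngn3*-OE partners to 407, a log2 ratio of 0.09 (−0.11 to 0.30); a pair of control peaks at 16.3 and 16.5 kb downstream shared 1 partner of 16 tags, which was counted once. The promoter was almost level at 98 and 103 tags, and so was the *Rhpn1* start site at 103 and 99. Of the peaks nearest to *Mafa*, the one at 6.6 kb downstream had 48 tags in control and 63 in *Ngn3*-OE (log2 ratio 0.42), and that at 43.2 kb upstream, in an intron of *Zc3h3*, had 34 and 42. *Mafa* had 6 *Ngn3*-OE-only peaks and 1 control-only peak. Those with a −log10 q of at least 5 both lay in *Zc3h3* introns with 11 tags each, at 40.5 kb upstream (chr15:75788686-75788773, −log10 q 5.44) and at 47.3 kb upstream (chr15:75795431-75795584, −log10 q 7.23).

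*Foxa2* (ENSMUSG00000037025.11, chr2:148042877-148046969, minus strand) had 7 control and 6 *Ngn3*-OE peaks at low levels, from 3 to 12 tags. Its 4 shared peaks summed to 26 tags in control and 34 in *Ngn3*-OE (log2 ratio 0.41, −0.37 to 1.21). At 24.8 kb downstream, in an intron of the noncoding gene *9030622O22Rik*, the tags were 6 and 12, at 0.5 kb upstream of a start site 4 and 8, and at 35.5 kb upstream 7 and 10. The peak at 1.7 kb upstream had 9 and 4 (log2 ratio −1.15). An *Ngn3*-OE-only peak of 9 tags (chr2:148045782-148045838, −log10 q 6.41) lay 0.1 kb downstream of a start site, so that the strongest start-site peaks of the 2 libraries were not the same region.

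**Figure D4:**
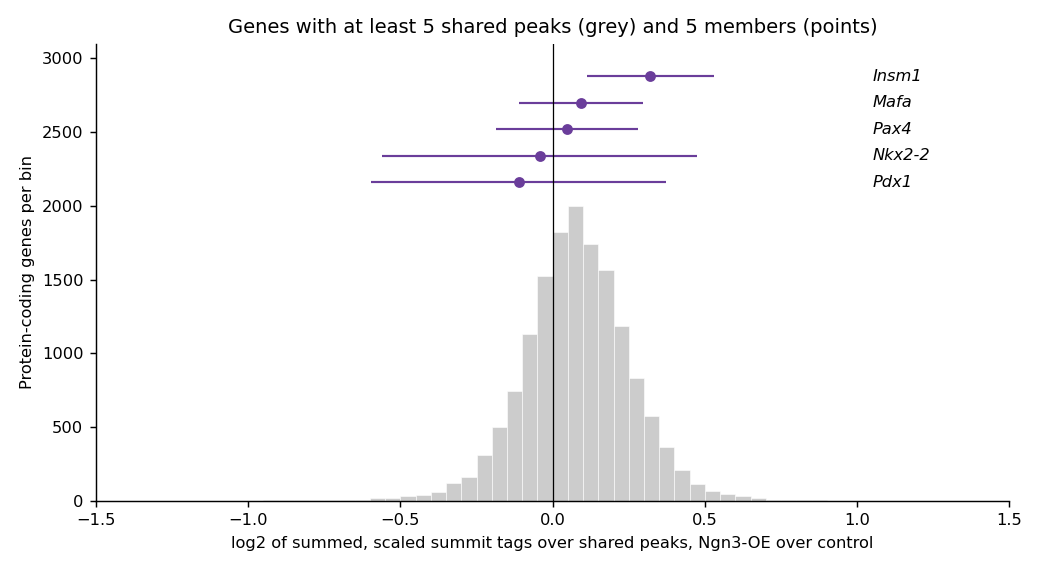
The log2 ratio of summed, scaled summit tags over the shared peaks of a gene, *Ngn3*-OE over control, for 15291 protein-coding genes with at least 5 shared peaks (grey bars, genes per bin) and for the 5 endocrine genes with as many (points with 95% counting intervals). *Insm1* lay at the 92.2 percentile and *Mafa*, *Pax4*, *Nkx2-2* and *Pdx1* at the 53.9, 42.0, 22.1 and 12 percentiles.

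Around the endocrine genes the share of regions with the E-box was not above that of all peaks. CATCTG, read on both strands in the 201 bp around the summit, occurred in 16 of the 92 regions (17.4%, Wilson interval 11.0 to 26.4) and in 22.2% of all peaks. By class, it occurred in 6 of 18 *Ngn3*-OE-only regions (33.3%, 16.3 to 56.3), against 25.3% of all such peaks. It occurred in 3 of 15 control-only regions (20%, 7.05 to 45.2), against 20.1% of all such peaks. Of the shared regions 7 of 59 held it (11.9%, 5.87 to 22.5), against 21.6% of all shared peaks. By gene, it occurred in 6 of 21 regions at *Insm1*, 4 of 19 at *Mafa*, 3 of 11 at *Pax4*, 1 of 16 at *Nkx2-2*, 1 of 6 at *Nkx6-1* and 1 of 3 at *Rfx6*, and in 0 of 7 at *Pdx1* and 0 of 9 at *Foxa2*. The longer NGN3 E-box consensus, which contains CATCTG, was found in 4 regions (4.35%; all peaks, 3.87%), 2 at *Insm1* and 2 at *Mafa*. ATTGT occurred in 14 regions (15.2%; all peaks, 25%) and GGATTA in 10 (10.9%; all peaks, 15.2%). In the RefSeq promoters of GRCm38.p6, which matched *Nkx2-2*, *Rfx6*, *Nkx6-1*, *Pdx1* and *Foxa2*, CATCTG was found at 1 of these 5 genes, *Nkx2-2*. Over all 32851 promoters the share was 14.4%. That share counts promoters and not genes, and *Foxa2* had more than 1 promoter, so the 2 values are not like for like. The promoters of *Insm1*, *Pax4* and *Mafa* were not searched here. A match is a description of the letters and not of binding.

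At the other genes of the endocrine programme the shares of shared peaks called higher or lower were near those of all shared peaks, 2.34% and 1.91%. At 20 further endocrine transcription factors, 188 of 248 control peaks were shared, with a median log2 ratio of 0.06, and 4 shared peaks were called higher (2.13%) and 4 lower (2.13%). A peak 14.1 kb from the start site of *Cerkl* in the window of *Neurod1*, the helix-loop-helix factor next to *Neurog3* in the endocrine pathway, had 19 tags in control and 48 in *Ngn3*-OE (log2 ratio 1.36, 0.57 to 2.21), while one 7.17 kb from the *Neurod1* start had 26 and 12. *Prox1* had a peak of 23 and 8 tags and *Pax6*, also a retinal progenitor gene, one of 39 and 19 at 0.069 kb from a start site. The strongest *Pax6* peak within 1 kb of a start site had 39 tags in control and 29 in *Ngn3*-OE. At 24 hormone and secretory genes of islet cells, 162 of 205 control peaks were shared, with a median of 0.11, and 4 were called higher (2.47%) and 2 lower (1.23%). *G6pc2*, a glucose-6-phosphatase subunit of islets, had a peak of 33 and 9 tags, and *Cpe*, which trims prohormones, one of 6 and 19. *Tph1*, which makes serotonin, had a peak of 10 and 29 tags at 0.689 kb from its start and one of 49 and 17 nearest to *Sergef*. Its strongest peak within 1 kb of a start site had 15 tags in control and 29 in *Ngn3*-OE. Of the insulin genes, *Ins1* had 0 peaks in both libraries and *Ins2* had 6 in control and 8 in *Ngn3*-OE, 6 of them shared, but no start-site peak in either library, and only 3 peaks of each library lay nearest to it.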

How the data were processed

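The authors trimmed reads with Trimmomatic, aligned them to mm10 with Bowtie2, filtered them with Picard, SAMtools and bedtools, shifted read ends by 4 and 5 bp with deepTools, and called peaks per library with MACS2 at a q-value limit of 0.05 on fragments up to 120 bp. The deposited peak lists hold whole-number scores, fold enrichments, p-values and q-values as −log10, and summit offsets. Values are not normalised between libraries. Equal intervals were merged (128853 control and 136761 *Ngn3*-OE lines, 159 and 150 left out as off the assembled chromosomes). Summit tags were solved from the deposited fold enrichment and −log10 p-value, and came out whole (within 0.005) for 100% of peaks. The length to which tags were extended is not given in the sources used here, so nearby summits may share tags, and summed intervals are then too narrow.

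Peaks overlapping by at least 1 bp were shared. Tags were scaled by the lowest background (ratio 0.983). Distances run from the nearest start site of the gene (GENCODE release M21). All 8 genes, their strongest peaks, one-library peaks with a −log10 q of at least 5 and called peaks were named by rule, with the 3 leading genes of each further list; other peaks named were chosen after their values were seen. The genes and lists were chosen with earlier results of these data known, and the tag sums per gene were added after the data were seen. The methods were tested on simulated data. Python 3.11.15, SciPy 1.17.1 and pandas 2.3.3 were used.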

Additional observations from a re-analysis of the deposited data

How the results depend on the processing

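No paired analysis was possible because each group had 1 library, and no replicate could be left out. Shares in brackets are those of the 8 genes and then of all peaks or genes under the same setting. For the flanks the second share is that of the whole list, which does not depend on the flank. With a −log10 q of at least 5 in both lists there were 45 control and 47 *Ngn3*-OE peaks, 8 control-only (17.8%; 18.3%) and 11 *Ngn3*-OE-only (23.4%; 23%), and 4 genes had a start-site peak in both libraries (50%; 60.1%). With that limit on the queried peak alone, 1 was control-only and 5 *Ngn3*-OE-only. The strongest 50000 peaks of each list left 31 and 37 peaks, 3 control-only (9.68%; 19.8%) and 9 *Ngn3*-OE-only (24.3%; 19.9%). A flank of 10 kb gave 32 and 28 peaks, 11 control-only (34.4%; 21.7%) and 7 *Ngn3*-OE-only (25%; 26.6%). One of 100 kb gave 117 and 130, 21 control-only (17.9%; 21.7%) and 35 *Ngn3*-OE-only (26.9%; 26.6%), with 1 of 96 shared peaks called higher and 1 lower (1.04% each; 2.34% and 1.91%). An overlap of 50% of both peaks gave 24 control-only (32.4%; 32%) and 26 *Ngn3*-OE-only peaks (34.2%; 36.2%). Scaling to the median shared peak moved the median log2 ratio to −0.0931. It left 1 of 59 intervals without 0 (1.69%; 5.43%), but that of the region 4.5 kb upstream of *Insm1* in place of the one at 33.9 kb downstream, an alternative added after the data were seen. A 1.5-fold limit called 1 peak higher (1.69%; 3.48%). CATCTG was found in 10.9% of regions within 50 bp of the summit (all peaks, 14%) and in 32.6% within 250 bp (38%), and ATTGT in 40.2% within 250 bp (52.1%). The other values moved by at most 1.5 times for counts, or stayed within the interval of the main value. For *Insm1*, the summed log2 ratio was 0.37 over the peaks nearest to it and 0.27 without start-site peaks. The causes were not tested.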
